A study of Mus musculus with 6 samples.

Results

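The cytochrome P450 family was followed in 3T3-L1 adipocytes as every gene whose symbol begins with Cyp and a digit, leaving out the sterol demethylase Cyp51. The rule found 70 genes among 18069 with a probe of a single gene symbol. They had 80 probes, and 9 genes had more than 1. For a gene with several probes, the one whose log2 intensity averaged highest over the 6 arrays stands for it.

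3T3-L1 is a mouse preadipocyte line that turns into fat cells under an adipogenic mixture. Total RNA taken 10 days after differentiation was read on CodeLink whole genome arrays, 3 of cells carrying only a Tet-off plasmid (control) and 3 of cells expressing uncoupling protein 1 (UCP1), a mitochondrial carrier that lets protons re-enter the matrix without ATP synthesis. The titles of the UCP1 arrays end in UCP1, UCP2 and UCP3, while the source field of all 3 names uncoupling protein 1, so the digits were taken as array numbers. The labels do not say which promoter drives UCP1, whether its cells also carry the Tet-off plasmid, whether the lines are clones, or whether a group's RNAs are from separate cultures. The p-values therefore reflect how far these 6 arrays scatter, and that scatter could be purely technical. In bulk RNA, fewer expressing cells and less RNA per cell cannot be told apart.

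Array medians lay between 1.043 and 1.048, and the 99th percentile of intensity was 255 to 279 on control and 185 to 225 on UCP1 arrays. The Ucp1 probe read 0.222, 0.232 and 0.278 in controls and 2.34, 2.02 and 1.54 in UCP1 arrays. It was higher on all 3 UCP1 arrays but did not pass the background limit described further on, standing above 79.7% to 88.5% of receptor probes there. Of 7 measured adipocyte markers 6 lay above background in both groups, with summed intensities of 3411 to 3911 and 2812 to 3883. The dim Lep, leptin, rose by 1.04 ± 0.187 (SE) in log2 units (limma, adjusted p = 0.0153). It was the only 1 of the 7 with a difference above 0, whereas all 7 lay above 0 after quantile normalization. None of 8 hepatocyte markers lay above background, with sums of 7.20 to 8.17 and 8.26 to 9.25, and none of 4 macrophage markers, with sums of 1.06 to 1.99 and 2.86 to 4.42. In that last list Lyz2, the lysozyme of myeloid cells, rose by 1.48 ± 0.217 (SE) in log2 units by limma (adjusted p = 0.00571), while Adgre1, Itgam and Ptprc read at most 0.334 on any array. Of 6 fibroblast or preadipocyte markers 4 lay above background in both groups, with sums of 649 to 876 and 659 to 853, and 2 of the 6 rose. They were Pdgfra, a receptor of preadipocytes, and the dim Thy1 (0.80, limma, adjusted p = 0.0319). Pdgfra read 58.6, 54.3 and 49.5 in controls and 108, 76.9 and 76.1 in UCP1 arrays (0.67, limma, adjusted p = 0.0484). Dlk1 was at 0.34, while Cd34, Col1a1 and Col3a1 lay below 0, at -0.29, -0.21 and -0.06, and none of these passed. Of 4 steroidogenic markers 1 lay above background in both groups, with sums of 18.5 to 20.6 and 22.2 to 26.5. That was Mc2r, at 14.9, 14.0 and 13.0 in controls and 21.1, 18.6 and 17.8 in UCP1 arrays, most of each sum. Its difference of 0.45 did not pass (limma, adjusted p = 0.0598), and passed after quantile normalization (0.59, adjusted p = 0.006). In the same list Star and Hsd3b1 read at most 1.02 and 0.334 on any array. Nr5a1 passed the background limit on 1 control array only. The part of these markers in the P450 results was not tested.

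Cytochromes P450 are haem enzymes that insert an oxygen atom from O2 into lipids, steroids, vitamins and foreign chemicals. Those of the endoplasmic reticulum draw electrons from NADPH through P450 reductase and cytochrome b5, and those of mitochondria through ferredoxin. Liver carries the greatest variety, whereas fat is known for a few members that act on fatty acids, sterols and xenobiotics.

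The 4 sequences that follow are the 250 bases before the RefSeq start site (GRCm38.p6, 5′ to 3′ on the gene's strand) of called members whose fitted difference exceeded 2-fold and that had an entry, shown because their regulatory ends can be compared side by side. The fitted difference of Cyp2c23, for which no sequence is shown, exceeded 2-fold as well. Capitals mark exact matches, on either strand, to 4 short motifs. The TATA box was searched as TATAAA. The letters of the CCAAT box are its name. The GC box was searched as GGGCGG. The core of the aryl hydrocarbon receptor site was searched as GCGTG, which can share bases with a GC box. A match is a string of letters and not a shown binding site.
Cyp2e1: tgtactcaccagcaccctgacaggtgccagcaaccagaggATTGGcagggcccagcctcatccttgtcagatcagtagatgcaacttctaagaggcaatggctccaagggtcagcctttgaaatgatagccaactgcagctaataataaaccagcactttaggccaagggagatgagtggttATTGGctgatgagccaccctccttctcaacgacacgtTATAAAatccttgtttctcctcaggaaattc
Cyp4b1: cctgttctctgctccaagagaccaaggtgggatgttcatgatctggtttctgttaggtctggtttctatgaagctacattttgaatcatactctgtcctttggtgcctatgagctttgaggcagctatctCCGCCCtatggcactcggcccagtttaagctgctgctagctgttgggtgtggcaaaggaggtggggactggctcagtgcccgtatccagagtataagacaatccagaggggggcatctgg
Cyp4v3: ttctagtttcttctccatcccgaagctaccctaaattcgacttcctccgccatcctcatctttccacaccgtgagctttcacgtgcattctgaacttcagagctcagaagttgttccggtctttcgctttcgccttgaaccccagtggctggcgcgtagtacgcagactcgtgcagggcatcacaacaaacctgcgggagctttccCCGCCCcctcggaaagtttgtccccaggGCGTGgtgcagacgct
Cyp2ab1: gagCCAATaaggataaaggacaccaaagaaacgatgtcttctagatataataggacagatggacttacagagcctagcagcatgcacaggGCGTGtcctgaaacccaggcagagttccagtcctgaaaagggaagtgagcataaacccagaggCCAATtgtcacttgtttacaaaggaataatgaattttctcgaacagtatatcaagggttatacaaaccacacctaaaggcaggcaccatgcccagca
The windows lie at chr7:140763569-140763818 on the plus strand for Cyp2e1 and on the minus strand at chr4:115647722-115647971 for Cyp4b1, chr8:45333164-45333413 for Cyp4v3 and chr16:20325405-20325654 for Cyp2ab1.

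The 4 windows had little in common in these letters. Cyp2e1 had TATAAA at bases -31 to -26 and CCAAT on the minus strand at -210 to -206 and -68 to -64. Cyp4b1 had a GC box, at -120 to -115 on the minus strand, and no match to the other 3. Cyp4v3 had a GC box at -44 to -39 on the minus strand and GCGTG at -16 to -12. Cyp2ab1, which moved the opposite way, also had GCGTG, at -160 to -156, and CCAAT at -247 to -243 and -97 to -93. Of the 70 members 52 had an entry, with 59 windows. TATAAA was in 32.2% of these windows against 12.4% of all 32851, CCAAT in 40.7% against 33.8%, GGGCGG in 27.1% against 32.7% and GCGTG in 23.7% against 28.2%.

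Most of the family read no brighter than genes that fat cells are not known to use. Because no detection marks were used, background was taken from 593 probes of olfactory and vomeronasal receptors, and a member counted as expressed in a group when it passed their 95th percentile (4.55 to 5.17 by array) on all 3 arrays. By this rule 13 of 70 members were expressed, 8 in both groups, 2 in control and 3 in UCP1 cells. The remaining 57 were not above background in either group, and 40 members lay below the array median on every array, at 0.898 or less. They included the liver enzymes Cyp7a1 and Cyp8b1 of bile acid synthesis, the Cyp3a drug oxidases Cyp3a11, Cyp3a13, Cyp3a16, Cyp3a25, Cyp3a41a and Cyp3a44, and the steroidogenic Cyp11a1, Cyp11b2 and Cyp21a1. The count was 20 with the 90th percentile, 6 with the 99th and 27 with the array median as the limit. Membership therefore depends on where the limit is set. Cyp2e1, Cyp4b1, Cyp2ab1 and Cyp2j6, described below, did not count as expressed with the 99th percentile.

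The 8 genes expressed in both groups were Cyp2f2, Cyp1b1, Cyp2d13, Cyp2d34, Cyp4v3, Cyp2c23, Cyp2d9 and Cyp2c55. The genes above background in 1 group were Cyp2ab1 and Cyp2j12 in control cells and Cyp2e1, Cyp2j6 and Cyp4b1 in UCP1 cells, a split that follows from the rule. Intensities of different probes do not rank their genes. Cyp2d13 is annotated as a transcribed pseudogene, and the Cyp2d and Cyp2c genes resemble one another so closely that a probe may read several, so these readings are uncertain as to the gene. The same holds for the Cyp2a, Cyp2b, Cyp2j, Cyp3a and Cyp4a genes.

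**Figure D1:**
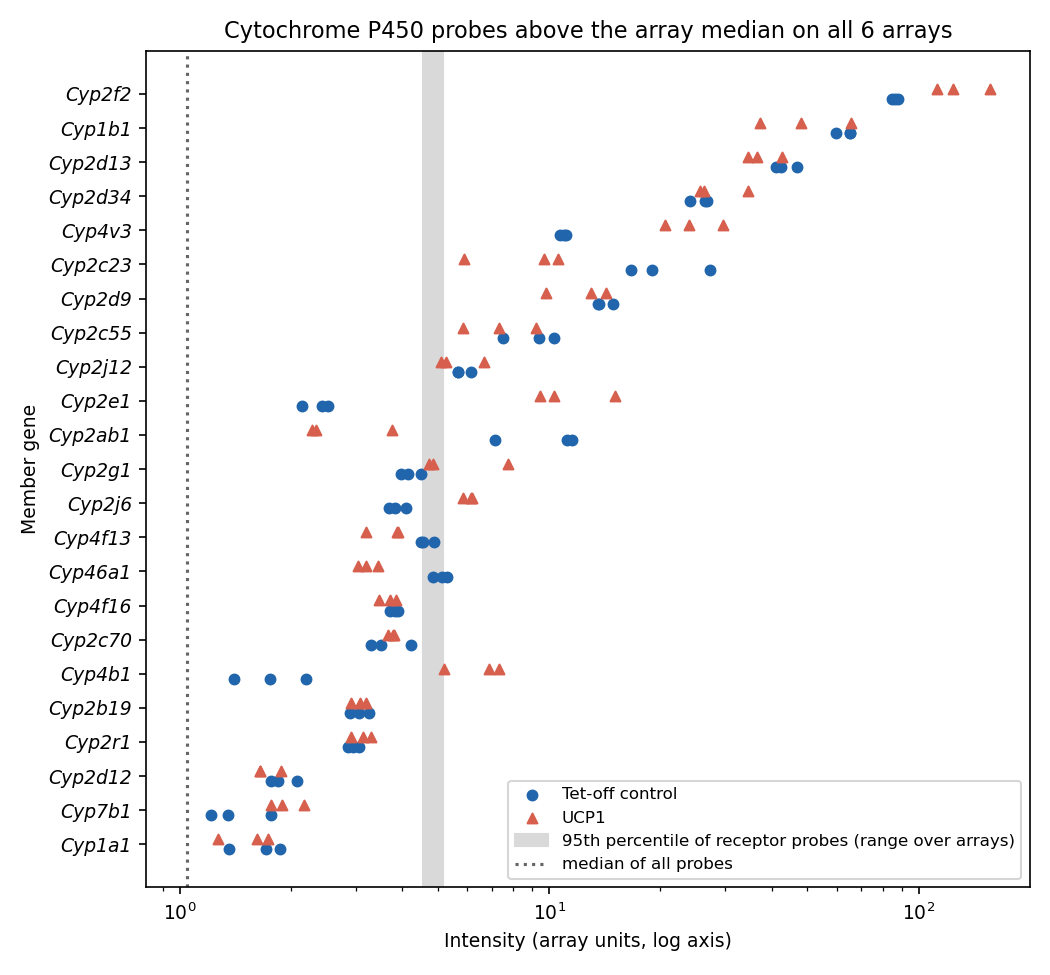
Intensity on each array (log axis) for the 23 members above the array median on all 6 arrays; circles are control arrays, triangles UCP1 arrays, the grey band the 95th percentile of receptor probes over arrays (4.55 to 5.17) and the dotted line the median of all probes. Cyp2e1, Cyp2j6 and Cyp4b1 cross the band from left to right in UCP1 cells, with a Cyp4b1 reading at its edge, and Cyp2ab1 crosses it the other way.

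UCP1 cells differed from control cells in 8 of 70 members, of which Cyp2e1, Cyp4b1, Cyp4v3, Cyp2a4 and Cyp2j6 rose and Cyp2ab1, Cyp2c23 and Cyp46a1 fell (limma, adjusted p over all 36116 tested probes). That was 11.4% of members, against 2.83% of all tested probes and 4.05% of the 18014 tested genes with 1 probe each. Brightness differs between these sets: all 8 lay among the 27 members in the brighter part of the probes, where 29.6% of members and 5.13% of all probes passed. Higher calls were 5 of 70 against 0.800% of all tested probes, and lower calls 3 of 70 against 2.03%. With 1 probe per gene 1.13% of all genes were called higher and 2.92% lower, and among brighter probes 1.33% and 3.80%.

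Over the whole family the median difference was 0.02 on the log2 scale, against -0.08 for all genes, and 37 of 70 members (52.9%) lay above 0, against 39.9% of genes. Groups did not overlap in 17 members, 11 higher and 6 lower, which at 24.3% is near the 25.2% of all genes and the 21.9% of all probes. After quantile normalization, which moves the median of the brighter probes from -0.09 to 0.02, all 8 calls remained and Cyp2f2 was added, beside 1.57% of all probes called higher and 1.23% lower. All 8 were lost without limma's intensity trend, at adjusted p = 0.104 for Cyp2e1 to 0.254 for Cyp2c23, where 0 of all probes passed and 4951 probes and 14 members had an unadjusted p under 0.05. All 8 were back when that fit was run on the brighter probes alone, an alternative added after seeing the data. A larger share of brighter probes passed there than the 5.13% of the main fit, and Cyp2f2 and Cyp2j9 passed too. On the plot of difference against level, the open circles of dim members scatter with the other genes at that level.

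**Figure D2:**
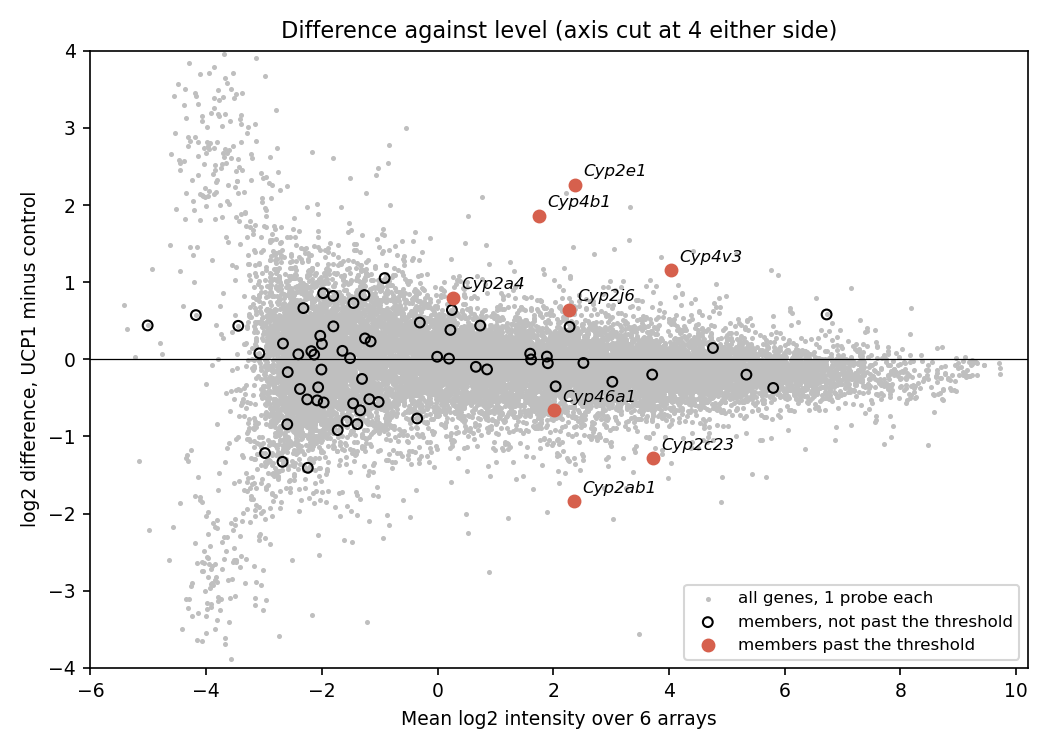
The log2 difference between groups (UCP1 minus control) against mean log2 intensity over the 6 arrays, for all tested genes (grey) and the 70 members. The axis is cut at 4 on either side. Of the 8 members past the threshold (filled), 5 lie above 0 and 3 below, and Cyp2e1, Cyp4b1 and Cyp2ab1 stand farthest from 0.

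Among enzymes known mainly for foreign compounds (families 1, 2 and 3 without the Cyp2j and Cyp2u genes, 38 members), 2 rose and 2 fell, with a median of 0.03. For all genes with 1 probe each, 1.13% were called higher and 2.92% lower. Cyp2e1, which oxidises ethanol, acetone and other small molecules, read 2.53, 2.43 and 2.15 on the control arrays and 9.43, 15.1 and 10.3 on the UCP1 arrays. The lowest UCP1 reading was above every control reading by several times the control spread. The difference was 2.27 ± 0.166 (SE) in log2 units by limma (adjusted p = 0.00013). The control readings were above 87.8% to 89.3% of receptor probes and below the limit on all 3 arrays. Set against that limit in place of the control readings, the rise was at least 2.36-fold. Leaving out any array or changing any setting kept the difference between 2.06 and 2.40.

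Cyp2ab1, a member with little known of its substrates, moved the other way. It read 11.2, 7.13 and 11.5 in controls and 3.76, 2.28 and 2.34 in UCP1 arrays. The groups were apart, although control 2 was well below the other controls and UCP1 1 above the other UCP1 arrays. The difference was -1.84 ± 0.217 (SE) in log2 units by limma (adjusted p = 0.00171), and -1.71 to -2.08 over all alternatives. UCP1 readings were not above background on any array, and against the limit the fall was at least 1.97-fold.

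Cyp2c23, whose rat counterpart makes epoxides of arachidonic acid in kidney, fell by 1.28 ± 0.222 (SE) in log2 units by limma (adjusted p = 0.0124). Its readings were 16.7, 19.02 and 27.3 in controls and 10.6, 5.87 and 9.66 in UCP1 arrays. Both groups stayed above background and did not overlap, and control 3 stood above the other controls. Without UCP1 3 the difference was -1.38 with adjusted p = 0.0735.

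Cyp2a4, a steroid hydroxylase of liver and kidney, rose by 0.80 ± 0.173 (SE) in log2 units by limma (adjusted p = 0.0326), from readings of 0.816, 0.946 and 0.969 to 1.38, 1.59 and 1.78. All 6 readings lay below the receptor limit, above 71.9% to 83.2% of receptor probes, so this rise sits in the range of background spots. The call was lost without control 1 (0.72, adjusted p = 0.118), control 2 (0.83, adjusted p = 0.0822), control 3 (0.85, adjusted p = 0.0596) or UCP1 3 (0.71, adjusted p = 0.186). Cyp2a5 is a near-identical relative, and the probe that names both genes was dim and measured at -1.46 ± 0.599 (SE), short of the threshold (limma, adjusted p = 0.236).

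Cyp2f2, the naphthalene-activating enzyme of airway club cells, did not pass the main test. It read 87.8, 84.8 and 86.5 in controls and 156, 124 and 112 in UCP1 arrays. The groups did not overlap, and the 3 controls differed by less than the gap to the lowest UCP1 array. The difference was 0.58 ± 0.156 (SE) in log2 units by limma (adjusted p = 0.0714). It passed after quantile normalization (0.85, adjusted p = 0.00115), after cyclic loess (0.80, adjusted p = 0.00207), with robust eBayes (adjusted p = 0.0474), on the brighter probes alone (adjusted p = 0.0285) and without UCP1 1 (0.45, adjusted p = 0.0462). It also passed on the brighter probes without the trend, and with the mean over a gene's probes. The gene has 1 probe, so in that last setting its own readings were unchanged. It did not pass with the offset, array weights or a replicate block, or on all probes without the trend. Nor did it pass when any 1 control array, UCP1 2 or UCP1 3 was left out.

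Cyp1b1, which hydroxylates oestradiol and polycyclic hydrocarbons, read 65.3, 59.8 and 65.1 in controls and 65.7, 37.3 and 48.0 in UCP1 arrays, so that UCP1 1 lay with the controls. Its difference of -0.37 ± 0.182 (SE) did not pass (limma, adjusted p = 0.333), and passed without UCP1 1 (-0.58, adjusted p = 0.0319). Its relatives Cyp1a1, at -0.10, and Cyp1a2, at 0.48, did not pass either and were not above background. The Cyp2d probes above background overlapped between groups. Cyp2d13, the pseudogene, read 46.7, 41.1 and 42.3 in controls and 42.6, 36.4 and 34.6 in UCP1 arrays. Cyp2d34 read 26.4, 24.1 and 26.7, then 34.5, 25.6 and 26.2. The Cyp2d9 readings were 14.9, 13.6 and 13.6, then 14.3, 13.0 and 9.84. For Cyp2c55, an enzyme of the intestine, they were 10.3, 9.38 and 7.49, then 5.86, 9.23 and 7.30. None of these 4 passed, with differences of -0.29 to 0.15 on the log2 scale.

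Among the Cyp2j and family 4 genes, which oxidise fatty acids and eicosanoids (17 members), 3 rose and 0 fell, with a median of 0.06. Beside these counts, 1.13% of all genes with 1 probe each were called higher and 2.92% lower. Among brighter probes these shares were 1.33% and 3.80%. Cyp4b1, which hydroxylates medium-chain fatty acids and activates plant toxins, read 2.20, 1.75 and 1.41 in controls and 6.87, 7.33 and 5.18 in UCP1 arrays. The groups lay far apart on all arrays. It rose by 1.86 ± 0.181 (SE) in log2 units by limma (adjusted p = 0.000507), with 1.70 to 2.03 over the alternatives. Its control readings were not above background on any array, and against the limit the rise was at least 1.33-fold. On UCP1 3 its reading of 5.183 only just passed that array's limit of 5.165. Its chromosome carries copies annotated as Cyp4b1 pseudogenes, which the probe may read as well.

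Cyp4v3, the mouse counterpart of a human fatty acid hydroxylase whose loss causes a crystalline disease of the retina, was bright in both groups. Its readings were 10.7, 11.1 and 10.96 in controls and 29.5, 23.9 and 20.6 in UCP1 arrays, 2.23-fold higher (log2 1.16 ± 0.135 SE, limma, adjusted p = 0.00165). The controls were nearly equal, and each UCP1 array was far above them. A second probe for the gene gave 9.23, 9.53 and 9.44, then 18.6, 18.8 and 16.2, and passed too (0.92, adjusted p = 0.00172).

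Cyp2j6, an epoxygenase of arachidonic acid, rose from 4.10, 3.70 and 3.82 to 6.13, 6.20 and 5.83, by 0.65 ± 0.111 (SE) in log2 units by limma (adjusted p = 0.0123). Readings were tight in both groups and did not overlap. Controls were not above background, and against the limit the rise was at least 1.26-fold. The call was lost without control 2 (0.61, adjusted p = 0.0611) or UCP1 3 (0.67, adjusted p = 0.0785). Its other, dimmer probe was measured at 0.92 without passing (adjusted p = 0.0717). The neighbouring Cyp2j9 was dim and measured at 0.64 (adjusted p = 0.0909). It passed with array weights (0.68, adjusted p = 0.0494), on the brighter probes alone (adjusted p = 0.0236), and on those probes without the trend. Cyp2j12, at 6.14, 5.68 and 5.68, then 6.67, 5.27 and 5.11, overlapped between groups.

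Of 10 enzymes of sterol, bile acid and steroid hormone metabolism 1 fell and 0 rose, with a median of -0.12. Shares over all genes with 1 probe each were 2.92% lower and 1.13% higher. Cyp46a1, the enzyme that turns brain cholesterol into an exportable oxysterol, read 4.86, 5.12 and 5.30 in controls and 3.19, 3.44 and 3.04 in UCP1 arrays. It fell by 0.66 ± 0.116 (SE) in log2 units by limma (adjusted p = 0.0133). The readings straddled the receptor limit in controls, with 2 of 3 arrays above it, and lay below it in UCP1 cells. The call was lost without control 2 (-0.66, adjusted p = 0.0577), control 3 (-0.63, adjusted p = 0.0524) or UCP1 3 (-0.62, adjusted p = 0.107).

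The other sterol and steroid enzymes were dim. Cyp7b1, which hydroxylates oxysterols and steroids, read 1.77, 1.36 and 1.22, then 2.18, 1.89 and 1.77, at 0.44 ± 0.174 (SE), short of the threshold (limma, adjusted p = 0.217). For Cyp27a1, a mitochondrial sterol hydroxylase, the difference was 0.01 ± 0.173 (SE), and for Cyp17a1 of androgen synthesis it was -0.77 ± 0.257 (SE), with adjusted p = 0.987 and 0.139 (limma). Cyp19a1, the aromatase, was not analysed here. None of the 4 vitamin D and retinoic acid enzymes was above background or passed. Cyp27b1, which makes the active hormone of vitamin D, was measured at 0.38 ± 0.178 (SE, limma, adjusted p = 0.307), and Cyp26a1, which degrades retinoic acid, at -0.53 ± 0.475 (SE, adjusted p = 0.627). The orphan enzyme Cyp20a1 was dim and measured at -0.92 ± 0.592 (SE, adjusted p = 0.485). 

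**Figure D3:**
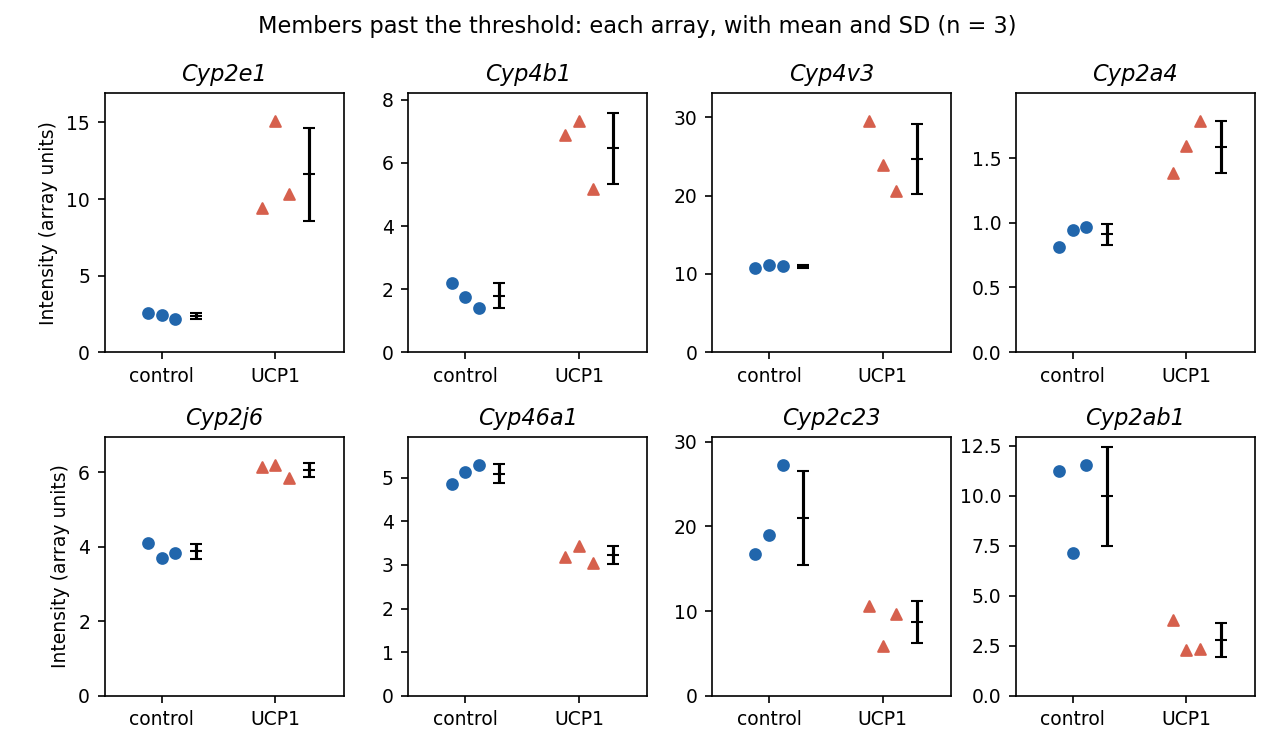
Intensity (linear axis from 0) on each array for the 8 members past the threshold, circles for control and triangles for UCP1 arrays, with the mean and SD of 3 arrays beside them. In every panel the groups lie apart, and axis ranges run from below 2 for Cyp2a4 to about 30 for Cyp4v3.

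Members between the array median and the receptor limit, chosen here after their values were seen, mostly overlapped between groups. Cyp2g1, an enzyme of the olfactory lining, read 4.49, 3.97 and 4.15 in controls and 4.74, 4.86 and 7.74 in UCP1 arrays. It passed the receptor limit on 2 of 3 UCP1 arrays and on no control array. Its groups were apart by a small gap and UCP1 3 stood above the rest, and the difference of 0.42 ± 0.174 (SE) did not pass (limma, adjusted p = 0.238). Cyp4f13, of a family that hydroxylates leukotrienes, read 4.89, 4.56 and 4.49, then 3.89, 3.89 and 3.19, also apart and also short of the threshold (-0.35 ± 0.125 SE, adjusted p = 0.165). It passed the receptor limit on 1 control array and on no UCP1 array.

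Near-equal readings were found in 4 others of these members. Cyp2r1, a hydroxylase of vitamin D in liver, was at 2.86 to 3.06 in controls and 2.90 to 3.29 in UCP1 arrays. Cyp4f16 was at 3.71 to 3.90 and 3.47 to 3.86, and Cyp2b19, an enzyme of the epidermis, at 2.89 to 3.26 and 2.92 to 3.20. For Cyp2c70, which makes muricholic acids in mouse liver, the ranges were 3.30 to 4.24 and 3.67 to 3.80. Their differences lay between -0.05 and 0.07 with SE of 0.115 to 0.129 on the log2 scale.

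Precision fell with level. The median SE of a probe was 0.127 to 0.160 where its mean log2 intensity was above 0, which held for 27 members, 0.348 between -2 and 0 (23 members) and 0.647 at -2 or below (20 members). In all, 10 members that did not pass had an unadjusted p under 0.05, among them the dim Cyp2a12 at 1.05 ± 0.459 (SE), Cyp2c39 at -0.80 ± 0.358 (SE) and Cyp2j11 at -1.41 ± 0.643 (SE), with adjusted p = 0.266, 0.279 and 0.292 (limma). The differences of Cyp2a12 and Cyp2j11 were large and still did not reach the threshold. Dim probes could pass, as did 93 of 9697 between -2 and 0 and 1 of 8218 at -2 or below.

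Family genes often sit in tandem runs. In RefSeq order, with at most 3 other genes between neighbours, 20 measured members stood alone and 50 lay in runs. Of those alone 5 were called, Cyp2e1, Cyp4v3, Cyp2ab1, Cyp2c23 and Cyp46a1, and of those in runs 3 were, Cyp4b1, Cyp2j6 and Cyp2a4. Over all genes with 1 probe each 4.05% were called, and among brighter probes 5.13%. Brightness differed by position too, with 5 of the 20 alone and 8 of the 50 in runs above background. A part of position in the calls was not tested. No run held more than 1 called member. In the run of Cyp2j6, 6 genes were measured, and in that of Cyp4b1 the measured Cyp4a14 and Cyp4a31 were dim and did not pass.

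Related genes were called in 14.3% of 7 electron donors, 16.7% of 12 haem genes and 4.35% of 23 receptors and other regulators. The share was 3.85% of 26 flavin and conjugating enzymes and 5% of 20 other arachidonic acid and steroid enzymes, against 4.05% of all genes. These are 1 or 2 genes per list, and the list medians depended on the scaling. Of 7 electron donors and partners 1 fell and 0 rose, with none above 0 and a median log2 difference of -0.33, which became 2 above 0 and -0.15 after quantile normalization. That gene was Cyb5r1, of the cytochrome b5 reductase family, at 30.1, 31.8 and 41.8 in controls and 21.002, 23.8 and 21.7 in UCP1 arrays. It fell by 0.63 ± 0.140 (SE) (limma, adjusted p = 0.0374), a call lost after quantile normalization (-0.47, adjusted p = 0.13). The call was also lost when any 1 control array was left out (adjusted p = 0.0595, 0.0849 and 0.121) and without UCP1 3 (adjusted p = 0.169). Por, the P450 reductase, was not analysed here.

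Of 12 genes of haem synthesis and breakdown 2 fell and 0 rose, with a median of -0.33, and 0 passed after quantile normalization, where the median was -0.22. Alad, the enzyme that forms porphobilinogen, went from 21.996, 18.004 and 16.5 to 8.68, 13.0 and 9.57, a fall of 0.87 ± 0.160 (SE) in log2 units by limma (adjusted p = 0.0176). Urod, a later step of haem synthesis, went from 16.9, 15.5 and 15.4 to 10.6, 12.04 and 10.3, a fall of 0.54 ± 0.112 (SE) (adjusted p = 0.0272). The groups did not overlap in either gene. After quantile normalization they were at adjusted p = 0.0602 and 0.0691. Alad was also lost without control 1 (adjusted p = 0.0697) and UCP1 3 (adjusted p = 0.128), and Urod without control 1, 2 or 3 (adjusted p = 0.122, 0.0898 and 0.0657) and UCP1 3 (adjusted p = 0.154).

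Of 23 receptors and other regulators of P450 genes, among them Arnt, Ahrr and Nfe2l2, 1 rose and 0 fell, with a median of -0.13. After quantile normalization Rxrg, a partner receptor named after its value was seen, was called higher too (0.58, adjusted p = 0.0441). The first was Ahr, the aryl hydrocarbon receptor that drives Cyp1 genes, at 0.728, 0.653 and 0.845 in controls and 1.20, 1.45 and 1.29 in UCP1 arrays. The rise of 0.83 ± 0.186 (SE) (limma, adjusted p = 0.038) lay among background spots. It was lost with the replicate number as a block (adjusted p = 0.0666), with any 1 control array left out (adjusted p = 0.11, 0.12 and 0.0516), and without UCP1 2 (adjusted p = 0.0685) or UCP1 3 (adjusted p = 0.163).

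Enzymes that share substrates with the family had 1 fall in each list. Of 26 flavin monooxygenases, epoxide hydrolases and conjugating enzymes, Fmo1, a flavin monooxygenase of nitrogen and sulphur compounds, fell by 1.31 ± 0.155 (SE) in log2 units by limma (adjusted p = 0.00172). It went from 9.92, 9.04 and 8.06 to 2.87, 4.301 and 3.87, without overlap, and was at least 1.81-fold lower against the limit, which no UCP1 array passed. Of 20 other arachidonic acid and steroid enzymes, Ptgis, prostacyclin synthase and itself a P450 by structure, fell by 1.25 ± 0.189 (SE) on the log2 scale (adjusted p = 0.00685). Its readings were 8.25, 6.23 and 5.26, then 2.45, 3.50 and 2.34, also without overlap and at least 1.31-fold lower against the limit, which no UCP1 array passed, and without UCP1 3 the difference was -1.14 (adjusted p = 0.0725). No gene rose in either list, and their medians were -0.14 and -0.21. After quantile normalization the medians were -0.05 and -0.10, and in the first list Gsta4, a glutathione transferase named here after its value was seen, was also called higher (0.51, adjusted p = 0.0475).

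**Figure D4:**
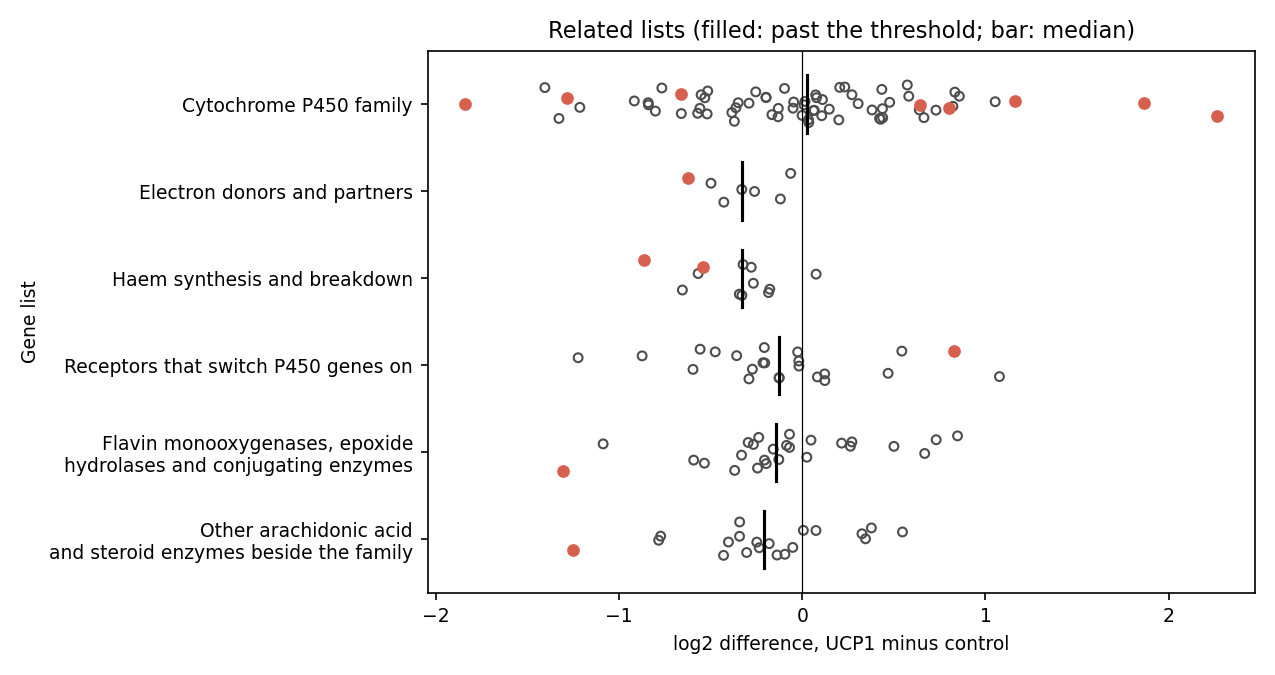
The log2 difference between groups (UCP1 minus control) for each gene of the P450 family and of the 5 related lists; filled points passed the threshold and black bars are list medians. The family spreads to both sides of 0, with 5 filled points at positive and 3 at negative differences. All lists but the electron donors also hold genes above 0. The family median is 0.02, and the medians of the 5 lists lie between -0.33 and -0.13, before quantile normalization.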

How the data were processed

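RNA of 6 arrays was compared, 3 per group, grouped by the source field of the labels. The deposited values are linear spot intensities, already scaled to a near-equal array median, as the values show. For scanner software, background correction and scaling method: not given in the sources used here. Entries of -9999 were treated as missing. Before log2, an array's lowest positive reading replaced its values at or below 0. Probe names came from the platform annotation, and all 70 members matched RefSeq (GRCm38.p6) by gene identifier with no change of symbol.

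The 2 groups entered 1 linear model per probe (limma 3.58.1, R 4.3.3, lmFit, eBayes with an intensity trend, two-sided) on the 36116 of 36227 probes with at least 2 values per group, with Benjamini-Hochberg adjustment over all of them and a threshold of 0.05. The functions were tested on simulated data. Where only 1 group passed the background limit, the fold bound sets its mean log2 against the higher of limit and reading on each array of the other. The number of arrays limits the precision, and intensities are relative to the array median.

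Named genes were called members, members above background (readings for the 12 brightest), the 2 smallest p values of an uncalled role group, called genes of the related lists, and a short fixed set. Other genes were named after their values were seen. Members and lists were chosen with earlier results of these data known. Alternatives were an offset of 0.2 before log2, quantile and cyclic loess normalization, brighter probes, eBayes without trend or robust, array weights, a replicate block, each array left out, the mean over a gene's probes, and other background limits.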

Additional observations from a re-analysis of the deposited data

How the results depend on the processing

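All 8 called members kept their direction under every alternative run. Members called numbered 0 without the intensity trend and 4 to 10 with 1 array left out, against 8. The lowest count was without UCP1 3, which lost Cyp2c23, Cyp2j6, Cyp46a1 and Cyp2a4, and without control 2 it was 5. Among all probes 1021 passed, 289 higher and 732 lower. The split was 567 and 446 after quantile normalization and 518 and 461 after cyclic loess. The count was 0 without the trend, 2239 on brighter probes, 2135 on brighter probes without the trend (chosen after seeing the data), 2206 with array weights, and 159 to 1894 with 1 array left out, the extremes being without UCP1 3 and without UCP1 1 or 2. Members above background numbered 13, and 20, 6 and 27 with the 90th percentile, the 99th percentile and the array median as the limit. With the replicate number as a block 8 members and 776 probes passed. Same-numbered arrays deviated with correlations of -0.24, -0.007 and 0.104, so the numbers were not taken to pair them. Below the receptor limit, a difference cannot be told from that of background spots.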

Other observations

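The family also had 6 probes that the annotation assigns to several of its genes, which were left out of the members. The probe shared by Cyp4a31 and Cyp4a10, fatty acid hydroxylases known as targets of PPARα in liver, read 11.5, 11.2 and 10.99 in controls and 12.3, 9.50 and 10.3 in UCP1 arrays. It was above at least 98.6% of receptor probes on every array, and its groups overlapped. The 3 probes assigned to Cyp4a31 alone read at most 0.769 on any array. The probe shared by 6 Cyp2d genes read 1.32, 1.26 and 1.54, then 1.43, 1.39 and 1.43. The probes shared by Cyp4a12a and Cyp4a12b, and by Cyp2c54, Cyp2c50 and Cyp2c37, read 0.721 or less.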
